A study of Mus musculus with 4 samples.

Results

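Embryonic livers of the age E15.5 (in days of embryonic development) labelled Adar1-/- Mavs-/- were compared with livers of the same age labelled Adar1-/-, all of strain label C57B6/J. These are 2 of the 4 samples of a mouse RNA sequencing study, and each is 1 library of total RNA that was taken up in Trizol and prepared by a standard Illumina protocol. Every chromosome was used. Both groups carry the label Adar1-/-, so no unaltered liver enters, and by the labels the comparison asks how a liver without Adar1 differs when Mavs is lost too. The sources used here do not say how the alleles were made or how many animals gave each library. Loss of ADAR1 throughout the mouse is known to be lethal in mid-gestation, before this age, and the sources do not say how these livers were obtained.

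ADAR1 is an enzyme that turns adenosine into inosine in double-stranded RNA, which marks the cell's own duplexes as self. Without this editing the cytosolic sensor MDA5 can bind such duplexes and signal through MAVS, an adaptor on mitochondria, to interferon genes, and the kinase PKR can phosphorylate eIF2alpha and lower translation. The fetal liver at this age is the main site of red cell production and holds erythroblasts, macrophages, megakaryocytes and early hepatocytes side by side.

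In short, levels summed over reference isoforms were lower by 2-fold or more under the label Adar1-/- Mavs-/- than under Adar1-/- in several groups. These were all counted skeletal muscle genes, most genes of the extracellular matrix, many but not all ATF4 and CHOP targets and some insulin-like growth factor signalling genes. By all 3 sums explained below, this held for 14 of 16, 10 of 19, 7 of 25 and 2 of 12 counted members, beside 3.16% of all counted genes. Of the members lower by all 3 sums, 14, 9, 5 and 2 were above 0 in both libraries. After centring for base composition 12, 3, 5 and 1 of the members lower by all 3 sums stayed so. Genes for hepatocyte plasma proteins were at like levels, the mitotic and megakaryocyte lists had medians above 0, and a few red cell genes were higher. With 1 library a side no spread between animals can be given, no p-value was computed, and every direction is one between libraries as labelled. Adar isoforms, given below, put the label Adar1-/- Mavs-/- in question. A pair of values is given with the library labelled Adar1-/- first, and higher or lower means in the library labelled Adar1-/- Mavs-/-. In bulk RNA, fewer cells of a type and less RNA per cell cannot be told apart.

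Levels are FPKM, the fragments mapped per kilobase of transcript and relative to all those mapped in the library, summed over the reference isoforms of a gene symbol. The log2 ratio was taken on FPKM plus 1 after scaling, a scale that understates differences at low levels. Of 33782 symbols in the values, 10856 had at least 1 FPKM in either library and were counted. Among these 774 were at least 2-fold higher (7.13%), 1902 at least 2-fold lower (17.5%) and 8180 within 2-fold, with a median log2 ratio of -0.20. Each gene was read in 2 further ways, by adding isoforms assembled from the reads and by all fragments over the gene's span whatever isoform they were assigned to, scaled as for FPKM but not by length (FPM). Of the 2676 genes at 2-fold, 581 (21.7%) were so in the same direction by all 3 sums, 238 of them higher (2.19% of the counted) and 343 lower (3.16%). By fragments over the span, 2019 of the 2676 lay within 2-fold and 27 went the opposite way. The 581 genes are called 2-fold by all 3 sums below, and 224 of them were above 0 in both libraries, 49 higher and 175 lower. Counts within gene lists are to be read beside these shares of all counted genes, since a list count near them sets the list apart in nothing.

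**Figure D1:**
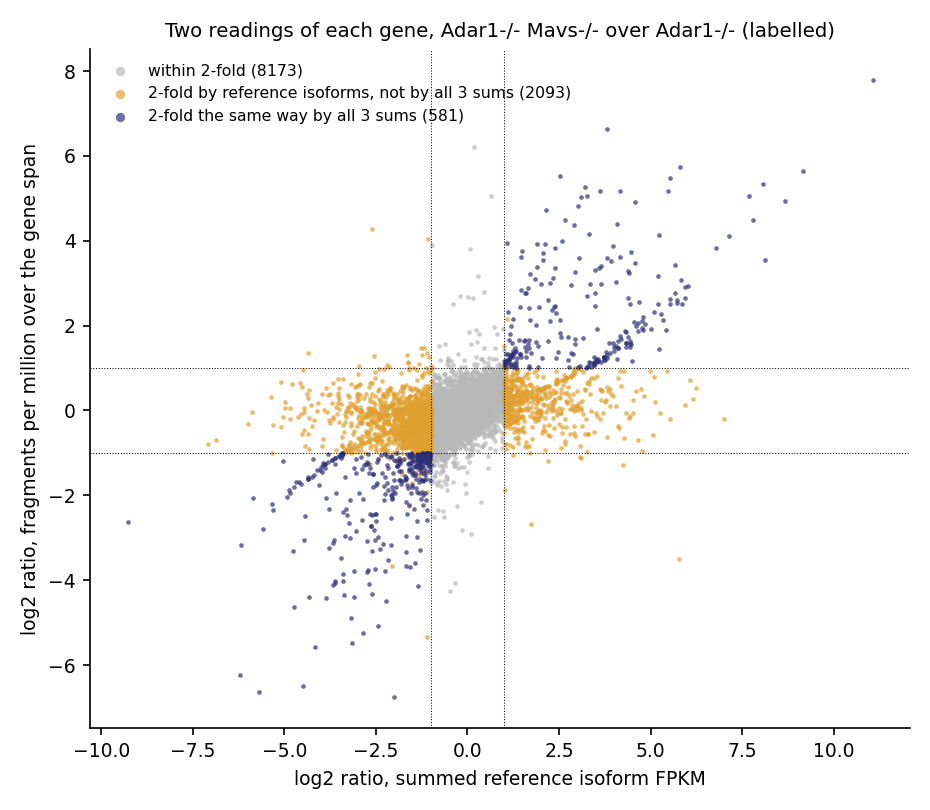
Log2 ratio of each counted gene from summed reference isoform FPKM (horizontal axis) and from FPM over the gene span (vertical axis), each point 1 gene, with dotted lines at 2-fold. The orange band along the horizontal axis holds genes that were 2-fold by reference isoforms but not by all 3 sums, and the dark points are the 581 that were 2-fold the same way by all 3.

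Adar and Mavs were read first. Under the label Adar1-/-, Adar (chromosome 3 from 89518944 to 89557368, mm9) had 0 of 8 reference isoforms above 0 and 5.56 FPKM from assembled isoforms. The library labelled Adar1-/- Mavs-/- had 3 of the 8 above 0, ENSMUST00000098924 at 1.11 FPKM, ENSMUST00000029563 at 1.16 and ENSMUST00000107405 at 0.541, and 4.11 FPKM with assembled isoforms added. Fragments over the Adar span were 32.2 and 35.1 FPM. Both labels say that Adar1 is lost, and RNA assigned to Adar was present in both libraries. Fragments over the span were at like levels, but that sum takes in every overlapping isoform, whether or not it was assigned to Adar. Under the label Adar1-/- the only Adar isoforms above 0 were assembled ones, from 89534621 to 89538114 and from 89554361 to 89558000. Under the label Adar1-/- Mavs-/- isoforms above 0 ran across the stretch between these, ENSMUST00000029563 from 89534670 to 89555328 among them. Reference isoforms, one of them over the whole gene, were above 0 under the label Adar1-/- Mavs-/- alone. These values put the label Adar1-/- Mavs-/- in question but settle neither label. Whether a label is wrong or the labels are exchanged was not tested. Mavs, on chromosome 2 from 131059799 to 131073761, had 4.79 FPKM (bounds 4.21 to 5.38) and 6.82 FPKM (bounds 6.05 to 7.58), so its RNA was present in both libraries at levels whose bounds do not overlap. An RNA level outside a deleted part of the gene checks nothing. Counted genes within 5 Mb of Adar numbered 91 with a median of -0.33, and those within 5 Mb of Mavs numbered 75 with a median of -0.18.

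Defining liver markers were abundant. Alb (albumin) had 4787 and 6648 FPKM, Afp (alpha-fetoprotein) 3004 and 3195, and the red cell anion exchanger gene Slc4a1 1263 and 1335. Markers of other organs were low, with Pax2 of kidney at 0.0368 FPKM and 0, Krt14 of skin at 0.430 and 0.0424, and Cdx2 of gut listed at 0 in both. Muscle was the exception, at 11.9 FPKM of Ckm in the library labelled Adar1-/-.

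Among lists with at least 5 counted members, skeletal muscle genes had the median farthest from 0. All 16 counted members were at least 2-fold lower, 14 of them by all 3 sums, with a median log2 ratio of -2.45 against -0.20 over all counted genes. Myl1, an essential myosin light chain, had 28.1 FPKM (bounds 26.7 to 29.6) and 0.0849 FPKM (bounds 0 to 0.170), and Mylpf, the fast regulatory light chain, 74.7 and 6.21. The libraries did not overlap in their bounds at either gene. Ckm, the muscle creatine kinase, had 11.9 and 0.0209 FPKM, the embryonic myosin heavy chain Myh3 6.61 and 0.0480, the perinatal chain Myh8 8.17 and 0.0347, and the fast troponin subunits Tnni2 and Tnnt3 15.7 and 0.790, and 6.88 and 0.276. The differences covered the contractile apparatus and its regulator alike, since Myog, the transcription factor of muscle differentiation, had 3.35 and 0.0199 FPKM. Of slow-fibre genes on the list, Tnnt1 had 9.66 and 1.24 and Myh7 1.47 and 0.00426, but the slow troponin gene Tnnc1, on the heart list, was higher. The 2 members that were not lower by all 3 sums were Neb, at -0.46 with assembled isoforms, and Casq2, the calcium store protein calsequestrin, whose 10.5 and 1.33 FPKM stood beside 40.8 and 42.9 FPM over its span.

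Summed over the counted list, skeletal muscle genes had 194 and 10.8 FPKM, and none was listed at 0. The other 12 of the 28 listed were below 1 FPKM in both libraries or not in the values. Heart muscle genes, which overlap this list, had a median of -1.78, with 7 of 10 lower (6 by all 3 sums) and 1 higher. Actc1, cardiac actin that developing skeletal muscle also uses, had 14.6 and 0.269 FPKM, and the atrial and embryonic light chain Myl4 11.8 and 0.165. The higher one, Tnnc1 (slow and cardiac troponin C), had 10.1 FPKM under the label Adar1-/- Mavs-/- and was listed at 0 under the other label. Defining heart markers were low in both libraries, with Nppa at 0.110 and 0.0385 FPKM and Myh6 at 0.487 and 0.00430. Among cartilage and bone genes 4 of 21 were counted and all 4 were lower, 3 by all 3 sums, including the collagen gene Col11a1 at 6.76 and 2.18 and the bone sialoprotein gene Ibsp at 4.19 FPKM and listed at 0. What share muscle or other tissue dissected with the liver has in these differences was not tested.

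Extracellular matrix genes were also lower as a group. Of 19 counted collagens and matrix genes, 13 were at least 2-fold lower (10 by all 3 sums), 0 were higher, and all 19 lay below 0, with a median of -1.17. Sparc, which binds collagen, had 43.3 FPKM (bounds 42.4 to 44.3) and 16.5 FPKM (bounds 15.9 to 17.2). Fn1, fibronectin, had 23.98 and 10.6, the basement membrane collagen gene Col4a1 12.5 and 5.07, Col5a1 6.34 and 1.88, Col6a2 6.59 and 2.73, and Col6a3 3.83 and 0.673. The collagen cross-linking enzyme gene Lox had 3.66 and 0.912 FPKM, and the elastic fibre genes Mfap4 and Fbln2 3.86 and 0.834, and 3.99 and 1.44. No member of this group was higher. The most abundant member, Postn (periostin), had 72.8 and 37.8 FPKM at -0.94, and the fibrillar collagen gene Col3a1 had 49.6 and 21.0 but -0.56 with assembled isoforms.

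Stellate and mesothelial genes, the cells of liver that make much of this matrix, had a median of -0.52 over 18 counted, with 6 lower and 1 higher. Only Des (desmin, shared with muscle) and Dlk1 were so by all 3 sums. Of their defining markers, Des had 3.10 and 0.409 FPKM, Reln 34.1 and 23.4, Upk3b 3.66 and 1.37, and Wt1 1.18 and 1.05. Dcn had 41.1 and 35.9 FPKM, and Acta2, smooth muscle actin, 9.36 and 3.56. Liver endothelial genes had a median of -0.72, with 4 of 20 lower and 1 higher, a share of lower genes near the 17.5% of all counted genes. Plvap, a protein of endothelial diaphragms, was lower by all 3 sums at 3.70 and 1.13 FPKM. Of the 20, 17 lay below 0. The defining marker Stab2, a scavenger receptor gene, had 24.4 and 11.9 FPKM but lay at -0.38 over its span. The defining markers Pecam1 and Cdh5 went the other way by reference isoforms. Pecam1 had 7.28 and 13.4 FPKM, and Cdh5 was listed at 0 under the label Adar1-/- and at 5.50 FPKM under the other. Over the span Pecam1 and Cdh5 lay at -0.05 and -0.38.

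Genes induced by ATF4 and CHOP, the transcription factors made when eIF2alpha is phosphorylated or amino acids run short, were lower without exception among those at 2-fold. Of 25 counted, 14 were lower (7 by all 3 sums) and 0 higher, and the median was -1.04, or -0.64 by fragments over the span. The promoters of Chac1 and Nupr1 are shown because both genes were lower by all 3 sums and hold a match to the CHOP-ATF4 element TGATGNAA on either strand within 250 bases before the start (RefSeq, GRCm38.p6). Each is given 5′ to 3′ on the gene's strand with the match in capitals.

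Chac1 (chr2:119350992-119351241, plus strand): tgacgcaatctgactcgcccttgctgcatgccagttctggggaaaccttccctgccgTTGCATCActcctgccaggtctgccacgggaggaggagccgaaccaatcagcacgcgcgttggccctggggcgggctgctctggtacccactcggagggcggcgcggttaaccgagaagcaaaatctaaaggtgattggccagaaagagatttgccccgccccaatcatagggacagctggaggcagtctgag

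Nupr1 (chr7:126625471-126625720, minus strand): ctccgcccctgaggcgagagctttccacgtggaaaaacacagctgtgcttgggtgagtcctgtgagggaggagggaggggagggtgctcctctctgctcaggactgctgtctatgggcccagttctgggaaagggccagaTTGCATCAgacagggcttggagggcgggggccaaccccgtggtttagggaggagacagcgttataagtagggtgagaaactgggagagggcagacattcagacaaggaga

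The match ended 185 bases before the start in Chac1 and 102 bases before it in Nupr1. Of 32851 promoters of this length 3.45% held a match, and of the 22 counted list members with a promoter there 8 did (36.4%). The first share counts promoters and the second counts genes with a match in any of their promoters, so their units differ. The members were listed as targets of these factors, so the higher share among them is no independent result. Members with a match were Atf3, Chac1, Nupr1 and Pck2 among those at least 2-fold lower and Aars, Asns, Gars and Vldlr among the rest. A match describes letters and shows no binding.

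By role, the members comprise stress effectors, enzymes of one-carbon and amino acid metabolism, and enzymes that charge tRNAs. Nupr1, a stress-induced chromatin protein, had 4.93 FPKM (bounds 4.34 to 5.52) and 0.497 (bounds 0.282 to 0.713). Chac1, which degrades glutathione, had 3.33 and 0.345, Sesn2, an inhibitor of mTORC1 signalling, 6.62 and 0.926, and the transcription factor gene Atf5 25.3 and 10.8. Trib3, a pseudokinase that dampens the response, and Cebpb, a partner of CHOP, had 4.79 and 13.5 FPKM under the label Adar1-/- and were both listed at 0 under the other label. These effectors are named because they were lower by all 3 sums, so their direction says nothing of effectors as a class.

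Shmt2, the mitochondrial serine hydroxymethyltransferase that feeds one-carbon units, had 34.7 FPKM (bounds 33.8 to 35.6) and 8.88 (bounds 8.38 to 9.38), the highest level among the members lower by all 3 sums. Its partner in the same pathway, Mthfd2, had 22.2 and 12.5. Serine synthesis stood apart, with Psat1 at 76.1 and 61.7 FPKM and Phgdh at 17.2 and 23.4, and so did Asns, asparagine synthetase and the most abundant member, at 95.2 and 109.8. Of the synthetases that charge tRNAs and are known ATF4 targets, Wars had 8.88 and 2.87 FPKM, Gars 48.1 and 27.2, Sars 92.1 and 59.3, and Nars 49.4 and 58.2. The group was therefore not lower throughout, and 4 of the 25 lay above 0. Of the 8 counted genes of the eIF2alpha kinases and their partners upstream, 3 were lower by reference isoforms and 0 by all 3 sums, with a median of -0.54.

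**Figure D2:**
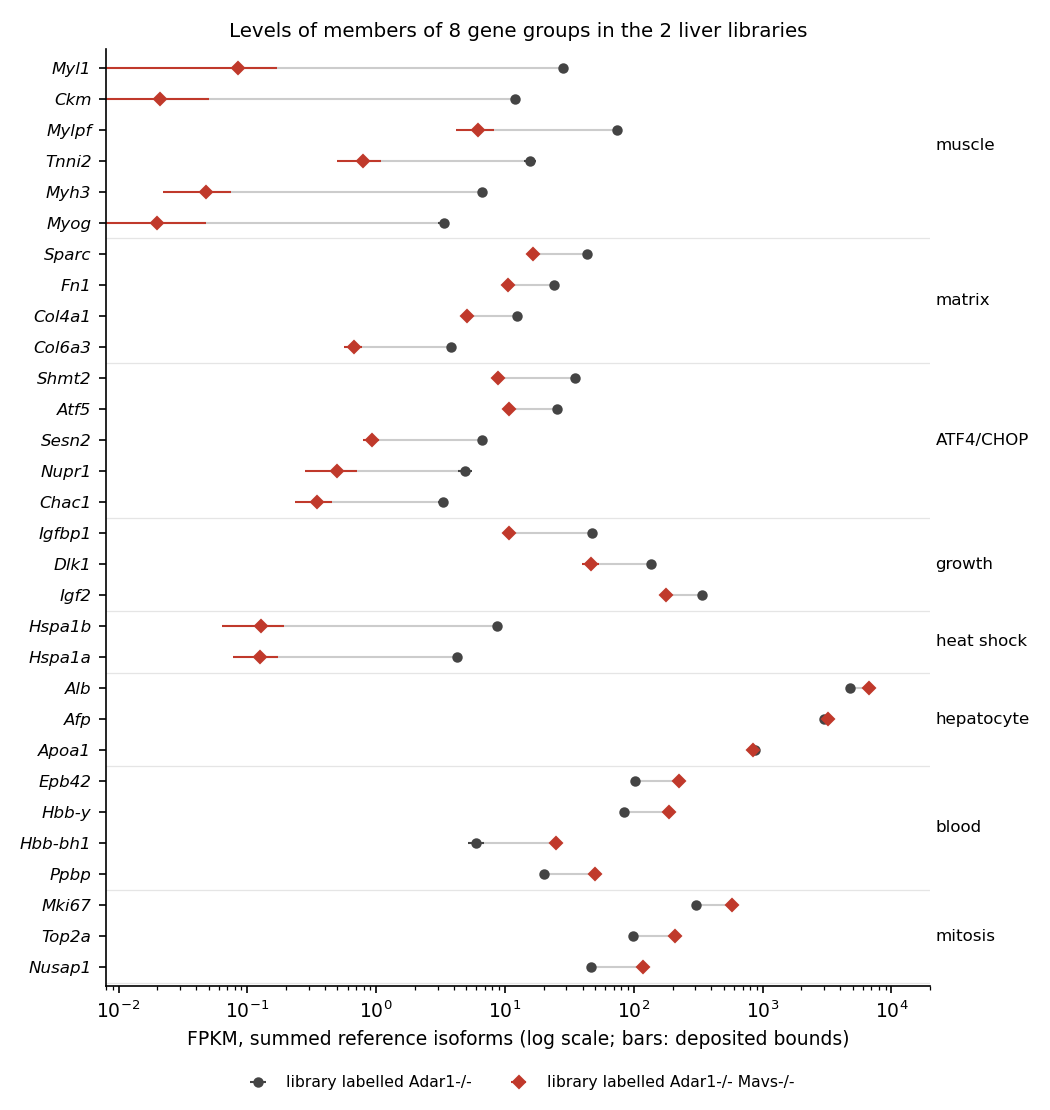
FPKM of members of 8 gene groups in the library labelled Adar1-/- (grey circles) and in the library labelled Adar1-/- Mavs-/- (red diamonds) on a log axis, with bars for the deposited bounds, which cover estimation within a library only; bars that run off the left edge have a lower bound of 0. The muscle genes lie farthest apart, with Myl1 at 28.1 and 0.0849 FPKM, while Afp at 3004 and 3195 nearly coincides.

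Growth factor genes of the insulin-like growth factor axis had a median of -0.95, with 5 of 12 lower and 0 higher. Igfbp1, a secreted binding protein that hepatocytes make under fasting and stress, had 47.2 FPKM (bounds 45.9 to 48.4) and 10.8 (bounds 10.1 to 11.4), with 71.9 and 16.4 FPM over its span. Igfbp5 had 3.53 and 0.975 FPKM and was the other member lower by all 3 sums. The main fetal growth factor Igf2 had 339 and 177 FPKM at -0.95, and its clearance receptor Igf2r 42.2 and 21.5. Of the imprinted genes, 5 of 19 were lower and 0 higher, with a median of -0.82. Dlk1, a membrane protein of hepatoblasts, had 135 and 46.8 FPKM, Ndn 5.79 and 1.95, and the abundant noncoding RNA H19 2345 and 1677. H19 and its neighbour Igf2 both lay within 2-fold.

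Fatty acid synthesis and desaturation genes had a median of -1.03, and -0.66 over the span, with 6 of 12 lower and 0 higher. The only one lower by all 3 sums was Scd2, a desaturase of fetal tissue, at 68.9 and 32.5 FPKM. Acly, which makes cytosolic acetyl-CoA, had 41.3 and 29.7 FPKM. Among cholesterol synthesis genes 5 of 19 were lower by reference isoforms, while the abundant Msmo1 and Cyp51 had 65.1 and 63.9, and 36.1 and 35.2 FPKM. Of 26 hypoxia and glycolysis genes 7 were lower and 0 higher, beside 17.5% and 7.13% of all counted genes. Their median was -0.54, or -0.43 over the span, and 23 of the 26 lay below 0. Aldoa, Gpi1 and Pgam1 were lower by all 3 sums, at 92.1 and 42.2, 40.8 and 17.4, and 20.5 and 8.23 FPKM. Ldha, the most abundant, had 172 and 125, while Gapdh went the other way at 58.4 and 81.9.

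Several inducible stress genes were lower. The inducible HSP70 genes Hspa1b and Hspa1a had 8.61 and 0.128, and 4.24 and 0.125 FPKM. They are near-identical copies, so the split between them is uncertain, but both were low in the library labelled Adar1-/- Mavs-/-. The constitutive chaperone gene Hspa8 had 941 and 1026 FPKM. Over 18 heat shock genes the median was -0.34, with 4 lower and 1 higher, near the 17.5% and 7.13% of all counted genes. The higher one, the mitochondrial chaperonin gene Hspe1, had 41.9 FPKM under the label Adar1-/- Mavs-/-, was listed at 0 under the other label, and was higher by all 3 sums. Of 14 immediate early genes 6 were lower and 0 higher, and Junb, Ier2 and Jund were so by all 3 sums, with Junb at 7.35 and 3.06 FPKM. Eef2, elongation factor 2, had 304 and 130 FPKM, was lower by all 3 sums and was named after its values were seen.

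Interferon-stimulated genes differed less as a group. Of 62 counted, 17 were lower and 3 higher, with a median of -0.43 against -0.20 over all counted genes. Over the span the median was -0.39 against -0.01, and 48 of the 62 lay below 0 by reference isoforms. By all 3 sums 5 were lower and 1 higher, and only 1 of these was above 0 in both libraries. The promoter of Isg15 is shown because Isg15, a ubiquitin-like protein that interferon induces, had the lowest ratio of them and holds the interferon-stimulated response element GAAANNGAAA on either strand. Matches are in capitals, on the gene's strand, within 250 bases before the start (RefSeq, GRCm38.p6).

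Isg15 (chr4:156200819-156201068, minus strand): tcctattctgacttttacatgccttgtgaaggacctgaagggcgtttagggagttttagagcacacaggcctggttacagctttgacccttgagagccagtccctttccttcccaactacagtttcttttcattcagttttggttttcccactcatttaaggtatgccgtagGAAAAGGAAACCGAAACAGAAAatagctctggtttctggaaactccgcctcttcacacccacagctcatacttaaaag

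It holds 3 overlapping matches in a single run, which ends 56 bases before the start. Of the 32851 promoters 2.98% held a match, and 19 of the 55 counted members with a promoter did (34.5%). As above, the first share counts promoters and the second counts genes. The members were listed as genes that interferon induces, so their higher share is no independent result either. Of the 19 members with a match, Bst2, Ifi203 and Isg15 were at least 2-fold lower, a share near the 17.5% of all counted genes. Of those, only Isg15 was lower by all 3 sums, and Ifi203 lay at 0.35 over its span. Ifit1, Ifit3, Irgm1, Rsad2 and Stat2 were among those within 2-fold. Members with a match thus lay on both sides of the 2-fold line.

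Isg15 was at 7.30 FPKM under the label Adar1-/- (bounds 6.55 to 8.05). Under the other label its reference isoform was listed at 0, and 1.73 FPKM came from assembled isoforms. Helz2, a helicase that interferon induces, had 3.76 and 0.325 FPKM. Shisa5, Trim34a and Ifi47 were at 3.16, 3.08 and 2.10 FPKM under the label Adar1-/- and listed at 0 under the other label. These 5 genes were lower by all 3 sums. Classical antiviral genes had low levels in both libraries, with Ifit1 at 1.95 and 0.840, Rsad2 at 5.09 and 3.14 and Usp18 at 1.89 and 0.863 FPKM. The most abundant members were B2m at 129 and 124 and Ube2l6 at 61.3 and 100.5, and both lay within 2-fold. Psmb9, an immunoproteasome subunit, had 1.73 FPKM under the label Adar1-/- Mavs-/-, was listed at 0 under the other label, and was higher by all 3 sums.

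In the pathway that leads to interferon, 15 of the 28 genes listed for MAVS signalling and nucleic acid sensing were counted. Of these, 2 were lower and 1 higher, near the 17.5% and 7.13% of all counted genes, and none was so by all 3 sums. Ifih1, which encodes MDA5, had 2.88 and 0.728 FPKM but lay at -0.41 over its span, and Ddx58, which encodes RIG-I, had 2.93 and 1.84. The kinase gene Tbk1 downstream of MAVS had 9.80 and 8.87 FPKM, and Ikbke 3.13 and 2.17. Traf3, an adaptor below MAVS, had 1.26 FPKM under the label Adar1-/- Mavs-/- and was listed at 0 under the other label by reference isoforms, but lay at -0.077 with assembled isoforms. The span readings of this group had a median of -0.05.

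**Figure D3:**
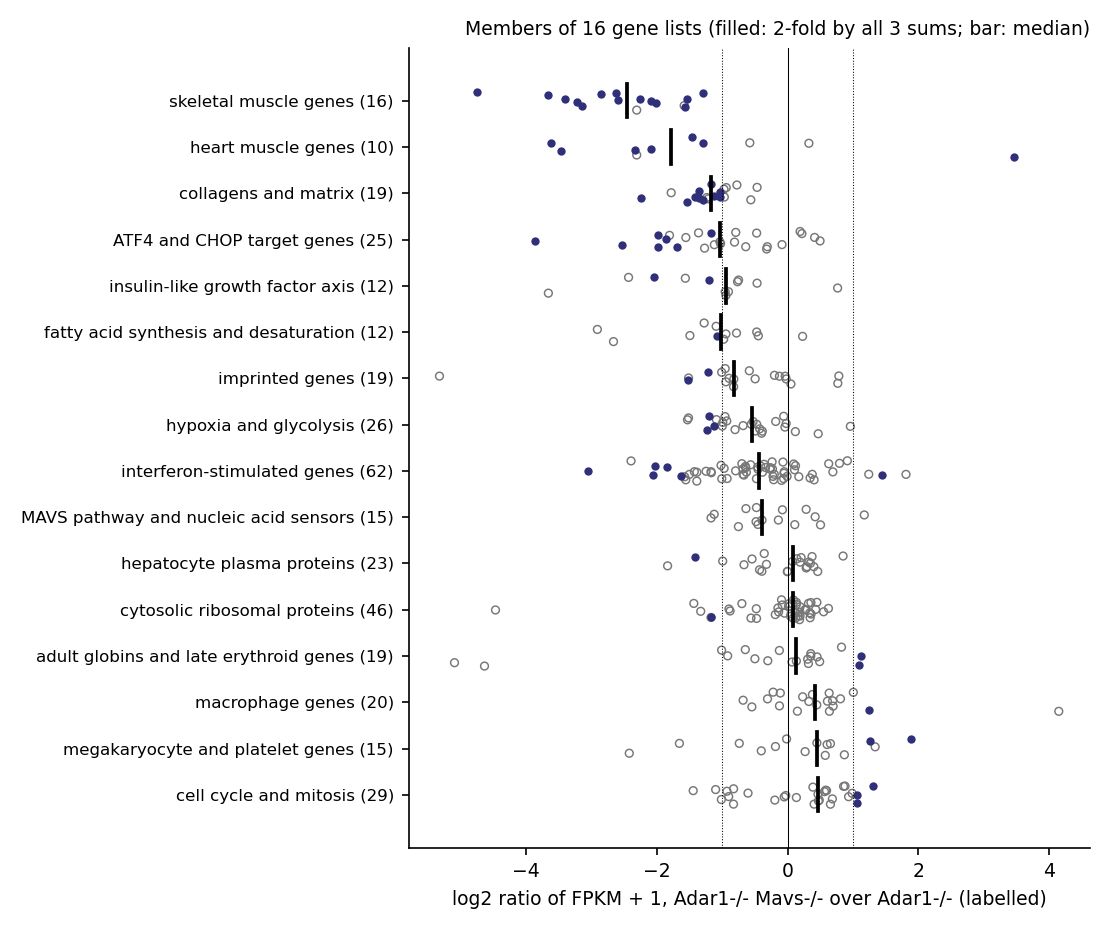
Log2 ratio of FPKM plus 1 for each counted member of 16 gene lists (number counted in brackets), Adar1-/- Mavs-/- over Adar1-/- as labelled. Filled points were 2-fold by all 3 sums, open points were not, black bars are list medians and dotted lines mark 2-fold; the skeletal muscle median is -2.45 and the cell cycle median 0.46.

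Hepatocyte plasma protein genes were close between the libraries, and hepatocyte transcription factor genes less so. Of 23 counted plasma protein genes 2 were lower and 0 higher, with a median of 0.07, and summed to 14370 and 15389 FPKM. Ttr, transthyretin, had 388 and 433 FPKM, Ahsg 839.5 and 661, and the serpin Serpina1b 498 and 652. Only Itih4, an inter-alpha-trypsin inhibitor chain, was lower by all 3 sums, at 55.8 and 20.5. The iron carrier gene Trf had 2347 and 1189.7 FPKM at -0.99, just inside 2-fold, and Vtn, vitronectin, had 162 and 44.9 by reference isoforms but lay at -0.65 over its span. Coagulation genes had a median of -0.11 with 1 of 19 higher and 1 lower, apolipoprotein genes -0.09 with 1 of 17 higher and 3 lower, and complement genes -0.03 with 1 of 14 higher and 3 lower. The lower shares of apolipoprotein and complement genes were near the 17.5% of all counted genes. The fibrinogen chain genes Fga, Fgb and Fgg had 405 and 378, 462 and 537, and 344 and 381 FPKM. Of 11 hepatocyte transcription factor genes 4 were lower and 0 higher, none by all 3 sums, and 10 lay below 0, with a median of -0.55, and of -0.25 over the span. Hnf4a and Foxa3, the most abundant, had 9.60 and 7.25, and 9.92 and 6.54 FPKM. Ppara, a regulator of fatty acid oxidation, had 5.13 FPKM under the label Adar1-/- and was listed at 0 under the other, but lay at 0.64 over the span. Urea cycle and amino acid breakdown genes had a median of -0.51 by reference isoforms and -0.06 over the span, and none of its 16 counted members was 2-fold by all 3 sums.

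Red cell genes were mostly within 2-fold, with a few higher. Among 19 counted late erythroid genes, Epb42, which encodes a protein of the membrane skeleton, had 102 and 225 FPKM and was higher by all 3 sums. The 3 members lower by reference isoforms were not so by all 3. Slc4a1, given above, was within 2-fold, and the carbonic anhydrase gene Car2 had 423 and 756 FPKM. Of 14 erythroid transcription factor genes 4 were lower and 1 higher, beside 17.5% and 7.13% of all counted genes. Zbtb7a was lower by all 3 sums at 13.8 and 5.64 FPKM. The central regulators were level, with Gata1 at 43.1 and 45.1, Klf1 at 89.6 and 105.8 and Tal1 at 59.2 and 46.7 FPKM. Nfe2, a factor of late red cells and megakaryocytes, had 13.2 FPKM under the label Adar1-/- Mavs-/- and was listed at 0 under the other label. Its deposited bounds in the libraries were not apart. The embryonic beta-like globins Hbb-y and Hbb-bh1, the globins of primitive red cells, had 83.4 and 189, and 5.98 and 24.7 FPKM, both higher by all 3 sums, whereas Hba-x had 8.46 and 9.61. Globin genes resemble each other, so reads may be split between them, and the main adult globin genes were not analysed here.

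Mitotic genes had a median of 0.46 over 29, with 3 higher and 3 lower, and 18 of the 29 lay above 0. At 2-fold, 7.13% of all counted genes were higher and 17.5% lower. Mki67, the proliferation marker, had 302 FPKM and 582, Top2a, topoisomerase II, 98.7 (bounds 97.8 to 99.7) and 208 (bounds 206 to 209), the kinetochore motor gene Cenpe 22.8 and 49.3, and the spindle protein gene Nusap1 46.9 and 119. The last 3 were higher by all 3 sums. Other genes of the same list went the other way, among them Plk1 at 25.1 and 8.67, Cdc20 at 36.2 and 16.5 and Aurkb at 16.8 and 7.90 FPKM, none lower by all 3 sums. The higher members are poor in GC, with 43.4% in Top2a and 41.8% in Nusap1, against a median of 49.2% over all counted genes. Replication genes had a median of 0.24 over 23.

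Among genes of other blood cells, megakaryocyte and platelet genes had a median of 0.45 over 15, with 3 higher, 2 lower and 6 below 0. These and the macrophage counts below stand beside 7.13% higher and 17.5% lower among all counted genes. The platelet chemokine genes Ppbp and Pf4 had 20.1 and 50.0, and 33.0 and 61.6 FPKM, and P2ry12, the platelet ADP receptor, was at 2.72 FPKM under the label Adar1-/- Mavs-/- and listed at 0 under the other label. The integrin gene Itga2b had 2.67 and 2.25 FPKM. Tubb1, the platelet tubulin, had 4.37 FPKM under the label Adar1-/- and was listed at 0 under the other, but lay at 0.98 over the span. Macrophage genes had a median of 0.41 over 20, with 3 higher, 0 lower at 2-fold and 6 below 0. Csf1r had 6.27 and 10.9 FPKM, Adgre1 (F4/80) 5.35 and 11.8 and the complement gene C1qb 12.7 and 21.3. Adgre1 lay at 0.62 over its span. Only Cd68 was higher by all 3 sums, at 1.38 FPKM under the label Adar1-/- Mavs-/- and listed at 0 under the other label. Granulocyte genes were mixed, with a median of -0.54 by reference isoforms, -0.10 over the span and 0.16 after centring for GC. The calgranulin genes S100a9 and S100a8 had 376 and 512, and 149 and 243 FPKM, while Mpo, myeloperoxidase, had 52.8 and 27.4. Prtn3, proteinase 3, had 72.5 FPKM under the label Adar1-/- and was listed at 0, with no fragment over its span, under the other label. Its neighbour Elane had 19.04 and 12.5.

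A value of 0 is not evidence of absence in these files. Of the 774 higher genes 523 were listed at 0 under the label Adar1-/-, as were 826 of the 1902 lower genes under the label Adar1-/- Mavs-/-. The zeros include genes that every cell uses. Cox6c, a subunit of respiratory complex IV, had 206 FPKM under the label Adar1-/- Mavs-/- and was listed at 0 under the other label, as was Ndufb3 of complex I with 23.2 FPKM, and the valine tRNA synthetase gene Vars had 21.4 FPKM under the label Adar1-/- and was listed at 0 under the other. These 3 were 2-fold by all 3 sums as well. Of the others with the highest level beside a 0, the antisense RNA Sardhos had 128.8 FPKM under the label Adar1-/- Mavs-/- but lay at -0.21 over the span. Under the label Adar1-/-, the histone genes Hist2h3b and Hist2h4, which have near-identical copies, had 619 and 115.8 FPKM, Sfpq, a paraspeckle protein gene, 133.9 and Smdt1, of the mitochondrial calcium channel, 62.6. Of these, Hist2h3b was 2-fold by all 3 sums, and Sfpq, Hist2h4 and Smdt1 lay at -0.80, -0.70 and -0.33 over the span. The lists of nuclear-encoded respiratory, ribosomal and proteasome genes had medians near 0, at 0.07 over 37 nuclear oxidative phosphorylation genes, 0.08 over 46 cytosolic ribosomal protein genes and 0.18 over 29 proteasome genes.

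The highest ratios by reference isoforms rested mainly on single short isoforms. Among the 12 genes with the highest ratio, 4 were 2-fold by all 3 sums, against 9 of the 12 with the lowest. Psma3, a proteasome subunit, had 8.60 and 259 FPKM, but in the library labelled Adar1-/- Mavs-/- 95.7% of that came from ENSMUST00000162898, an isoform of 312 bases listed at 0 in the other library, and fragments over its span were 81.2 and 111 FPM. Slc25a12, a mitochondrial aspartate carrier, had 1.43 and 164 FPKM, of which 96.1% came from an isoform of 204 bases, with 40.1 and 63.3 FPM over the span. R3hcc1l, Snap23, Ppp1r10, Zrsr2, Sema4a and Cul5 were likewise within 2-fold over the span. Those higher by all 3 sums were Chek1, the checkpoint kinase, at 20.4 and 118 FPKM, Mkks at 3.80 and 25.1, and the ribosomal RNA copies n-R5s193 and n-R5-8s1. Of the higher value, 64.3% in Chek1 came from an isoform of 310 bases and 72.3% in Mkks from one of 810 bases. Both isoforms were listed at 0 in the other library. Over the span Chek1 had 25.7 and 65.6 FPM and Mkks 15.2 and 35.1. Of the 12 lowest, 7 are muscle list members, and Tpm2, a tropomyosin outside the lists, had 37.3 and 2.97 FPKM. Dpf2, Ppp4r1 and Cpsf3, also among the 12, lay within 2-fold over the span.

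Small noncoding RNAs took most of the FPKM. The same 10 symbols were the most abundant in both libraries, led by Rn7s6 of the signal recognition particle at 79499 and 92886 FPKM and Rn7sk, which restrains transcription elongation, at 60920 and 86904, with log2 ratios of the 10 from -0.01 to 0.68. The 160 counted small nuclear RNA genes held 41.9% and 47.1% of the FPKM, and their median was 0.40, with 47 higher and 40 lower. Of 129 small nucleolar RNA genes 52 were higher and 34 lower, 30 and 10 of them by all 3 sums. Snora44, Snora52 and Snora26 had 574, 409 and 225 FPKM under the label Adar1-/- Mavs-/- and were each listed at 0 under the other label. Among 29 counted ribosomal RNA copies 14 were higher and 14 lower by reference isoforms, and 10 were higher and 0 lower by all 3 sums, with n-R5s193, a 5S copy, at 351 FPKM (bounds 242 to 461) and 1842 (bounds 1561 to 2124). These genes are short and have near-identical copies, so their single values are uncertain.

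The ratio followed base composition across all counted genes. In 5 groups of like size, from the lowest GC content of the transcripts to the highest, the median log2 ratio was 0.21, -0.03, -0.20, -0.43 and -0.69, and by fragments over the span it was 0.28, 0.12, -0.02, -0.16 and -0.39. Genes lower at 2-fold numbered 175 in the first group and 726 in the last. Centred within 20 bins of GC, 907 genes were higher and 1099 lower, in place of 774 and 1902, and of the 581 genes 2-fold by all 3 sums 438 remained at 2-fold, 225 higher and 213 lower. Scaled as TPM over symbols the split was 586 and 2647. The GC trend touches the groups above unevenly. After centring, the median was -2.06 for skeletal muscle, -1.46 for heart, -0.65 for matrix, -0.57 for ATF4 and CHOP targets, -0.64 for the insulin-like growth factor axis, -0.81 for fatty acid synthesis, -0.30 for interferon-stimulated genes, 0.19 for plasma proteins and 0.49 for mitosis. Of members 2-fold lower by all 3 sums, 12 of 14 stayed so in muscle and 5 of 7 among ATF4 and CHOP targets, but 3 of 10 in matrix, 1 of 2 in the insulin-like growth factor axis, 0 of 3 in glycolysis and 0 of 3 among immediate early genes. Plvap, Scd2 and Itih4 came to lie within 2-fold, as did 2 of the 3 higher mitotic genes. What share base composition has in these differences was not tested.

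**Figure D4:**
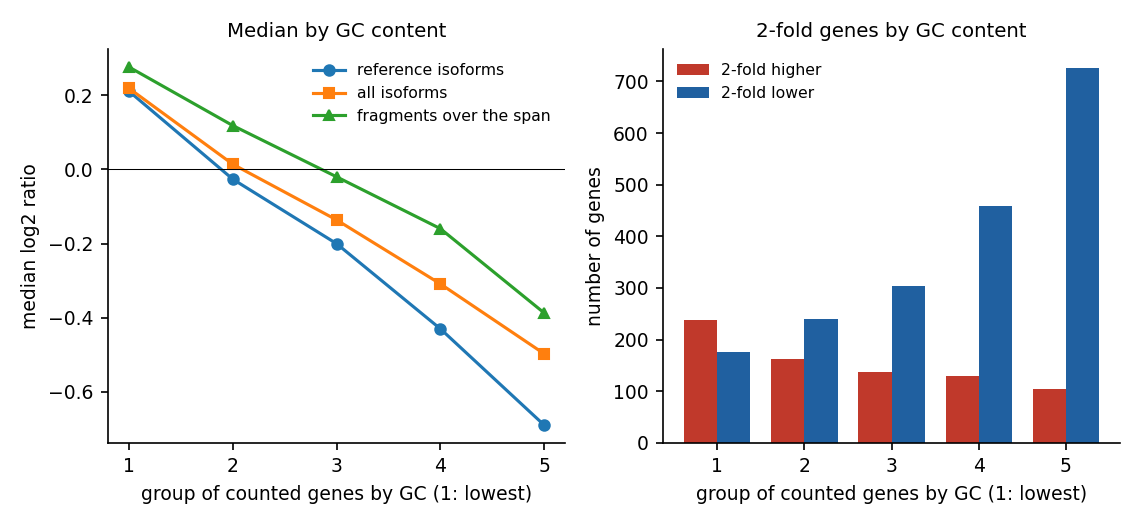
Left, median log2 ratio in 5 groups of counted genes ordered by GC content, for the 3 sums. Right, number of genes at least 2-fold higher or lower by reference isoforms in each group, where lower genes go from 175 in the first to 726 in the last.

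By chromosome the medians of the autosomes and X lay between -0.38 on chromosome 7 and -0.01 on X, and between -0.13 and 0.12 over the span. Both libraries held Y-linked transcripts, with Ddx3y at 8.38 and 14.4 FPKM, and little Xist, at 0.405 and 0.0620 FPKM. Across levels, 29.8% of counted genes from 1 to 5 FPKM were at 2-fold, and 9.83% of those of at least 100, whereas the share at 2-fold by all 3 sums was 4.57% and 5.93%.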

How the data were processed

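Total RNA of the 2 liver libraries was read from isoform tables deposited by the authors, which give FPKM per isoform with a lower and an upper bound, and a coverage value that is a fixed multiple of FPKM within a library, per the file headers. The submitters' processing notes list mm9, Cufflinks 2.2.1 and TopHat 1.4.0, without saying what each did. The sources used here give neither read totals nor strandedness, so depth is unknown and antisense partners may not be separated. Coverage per FPKM was 8.58 and 7.13, Adar1-/- first.

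Ensembl transcript identifiers were matched to symbols in GENCODE M21, 86.7% of reference isoforms in each library, and FPKM were summed per symbol, with bounds combined as the root of summed squares. Reference isoforms with a symbol held 43.7% and 45.1% of FPKM weighted by length, assembled isoforms 47.4% and 44.3%, and reference isoforms without a symbol the rest. The second sum adds assembled isoforms by best overlap. The third weights FPKM by length and by the part of each isoform inside the gene's span. Values under the label Adar1-/- Mavs-/- were multiplied by 0.990, which set the median ratio of 5070 symbols with at least 5 FPKM in both to 0. The pseudocount was 1. The steps were tested on simulated data. Python 3.11.15, numpy 2.4.6 and pandas 2.3.3 were used.

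The comparison and the 64 gene lists were chosen with earlier results of these data known. The rule for named genes took the 12 highest and 12 lowest ratios among symbols of at least 5 FPKM, 5 listed at 0 on each side, the 10 most abundant, and for each list the 2 most abundant and the extremes. Not every gene it took is named: the most abundant small RNAs are given by their range, and many list members by counts. List members at 2-fold by all 3 sums, and other members that show a role, were named after their values were seen. Bounds cover estimation within a library only. Symbols without a reference isoform, among them the mitochondrial genome genes, were not analysed here. Some list members are not reported here by name.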

Additional observations from a re-analysis of the deposited data

How the results depend on the processing

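Of 12 alternatives chosen at the start and 3 added after seeing the data (fragments over the span, centring within GC bins, and all 3 sums), the number of higher genes, 774, was 356 with a pseudocount of 5, 481 with at least 5 FPKM in either library, 464 with isoforms of status OK in both, 251 without symbols listed at 0, 323 by fragments over the span and 238 by all 3 sums. The number of lower genes, 1902, was 552, 1020, 1076, 508, 1099 and 343 with a pseudocount of 5, at least 5 FPKM, no symbols listed at 0, fragments over the span, GC centring and all 3 sums. TPM scaling shifted log2 ratios by -0.33 and an upper quartile factor by 0.17 before the pseudocount. The skeletal muscle median was -4.19 and -1.19 with pseudocounts of 0.1 and 5 and -1.58 without a filter, and the heart median -3.65 with 0.1. The matrix median was -0.64 with a pseudocount of 5, -1.43 by TPM and -0.65 after GC centring. The insulin-like growth factor median was -0.68, -0.67 and -0.64 with a pseudocount of 5, over the span and after GC centring, that of interferon-stimulated genes -0.21 with a pseudocount of 5, and that of mitosis 0.88 with status OK only.

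Directions reversed after GC centring for hepatocyte transcription factors (0.038), granulocyte genes (0.16) and acute phase genes (0.015). With assembled isoforms Adar was at -0.38, Traf3 at -0.077, Cdh5 at -1.40 and Tubb1 at 0.65. Over the span Casq2 was at 0.14, Cdh5 at -0.38, Ppara at 0.64, Sardhos at -0.21, Tubb1 at 0.98, Ifi203 at 0.35, Ppp1r10 at -0.32, R3hcc1l at -0.21, Sema4a at -0.57, Traf3 at -0.13 and Zrsr2 at -0.10. With status OK only, Col6a2 was at 0.42 and Ppp1r10 at -2.02. The cause of these shifts was not tested. All other list medians and named genes kept their direction where it was at least 0.5 (lists) or 2-fold (genes), in every alternative run.

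No paired analysis was possible because each group has 1 library. Low genes have wide bounds, and the FPKM bounds do not stand for animals.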
